A study of Mus musculus with 16 samples.

Results

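MiR-22, miR-31 and their star strands, the less abundant products of the same hairpins, were followed across primary mouse embryonic fibroblasts (MEFs) that age in culture. These 4 mature miRNAs were taken by name from the 611 mouse miRNAs on the array, and all 4 were among the 235 that were tested. The MEFs were *Ercc1*-/- or wild-type (WT) cells of a mixed FVB/n C57Bl/6 background, grown at 20% or 3% O2 to passage 7 (P7) or passage 3 (P3) and harvested short of confluence. The 8 groups were *Ercc1*-/- P7, *Ercc1*-/- P3, WT P7 and WT P3 MEFs, each at 20% and at 3% O2, with 2 arrays per group and 16 in all. The *Ercc1*-/- cells lack the gene from the embryo on, and the methods describe independent MEF lines as replicates. *Ercc1* is an mRNA and is not read by a miRNA array, so the genotype labels were not checked here. The hairpins were chosen by measured values of these data, miR-31 by its lower signal at 20% than at 3% O2 in *Ercc1*-/- P7 MEFs and miR-22 by its higher signal at P7 than at P3. Those comparisons are given as descriptions without a test.

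ERCC1 is the partner of the XPF nuclease, which cuts DNA during nucleotide excision repair and interstrand crosslink repair. MEFs without it accumulate DNA damage and stop dividing early in atmospheric oxygen, the state called replicative or stress-induced senescence. A miRNA hairpin is cut into a duplex, of which one strand is usually kept in an Argonaute protein while the other, the star strand, is degraded, and the kept strand finds its target mRNAs mainly through its seed, bases 2 to 8. In human fibroblasts, miR-22 is known to induce senescence and to target CDK6, SIRT1 and SP1. MiR-31 comes from a locus near *Cdkn2a*, the gene of the cell cycle inhibitor p16INK4a and of ARF, and in human tumours it is often lost together with that gene.

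The mature sequences of the 4 members follow and were not compared with the probes of the array. They are the RefSeq sequences on build GRCm38.p6, written 5' to 3' with the seed in capitals, and miR-22 is named miR-22-3p, miR-22* miR-22-5p, miR-31 miR-31-5p and miR-31* miR-31-3p in current annotation.
mmu-miR-22 (chr11:75463772-75463793, plus strand): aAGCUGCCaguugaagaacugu
mmu-miR-22* (chr11:75463734-75463755, plus strand): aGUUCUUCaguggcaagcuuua
mmu-miR-31 (chr4:88910614-88910635, minus strand): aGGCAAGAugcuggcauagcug
mmu-miR-31* (chr4:88910577-88910599, minus strand): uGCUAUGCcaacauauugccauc
The 4 seeds differ from one another, and none of the other mature mouse miRNAs in the RefSeq table (1679 names in all) carries any of them, so none of the 4 belongs to a larger seed family there. *Mir22* lies inside the long noncoding RNA gene *Mir22hg*. *Mir31* and *Cdkn2a* lie on the same chromosome with 7 annotated genes between them, of which *Mtap*, an enzyme of methionine salvage, is the 1 that codes for protein.

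All values are log2 fluorescence signals, scaled so that the 57 miRNAs detected above background on all 16 arrays had the same average on each, with a floor of 1.50. A signal of one miRNA cannot be set against that of another, because probes differ in brightness. Before scaling, that average lay between 5.80 and 9.29 on the P7 arrays and between 6.98 and 9.77 on the P3 arrays. The replicate number was also the slide and the scan, and the average was 9.17 on slide 1 and 7.55 on slide 2. An array detected 117 to 257 mouse miRNAs above background, and the array of *Ercc1*-/- P7 MEFs at 20% O2 on slide 2 stood lowest in both measures. Every P7 array lay in one row of a slide and every P3 array in the other, and each genotype and oxygen level kept its own column, so position on the slide and group cannot be told apart. Of the marker lists, all 6 mesenchymal miRNAs were above background on some array and none of the 7 epithelial ones on any. Of the muscle markers 1 of 4, and of the blood cell markers 3 of 6, were above background on some array. The log2 of the summed mesenchymal signal lay between 10.8 and 14.1 at P7 and between 13.4 and 14.0 at P3, while that of the blood cell markers lay between 4.08 and 6.65 at P7 and between 4.23 and 6.25 at P3. The part of these cell types in the results was not tested. In RNA from whole cultures, fewer cells of a type and less RNA per cell cannot be told apart. MiR-210, which is known to be induced by low oxygen, lay between 5.50 and 8.52 at 20% O2 and between 8.75 and 11.2 at 3% O2 (change of -3.00, SE 0.35, adjusted p = 0.000615), so the 2 oxygen labels did not overlap in it.

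MiR-22 was above background on all 16 arrays and stood higher at P7 than at P3 in every genotype and oxygen level. In *Ercc1*-/- MEFs at 20% O2 it was 11.67 and 14.12 at P7, against 11.14 and 11.12 at P3. In *Ercc1*-/- MEFs at 3% O2 it was 12.56 and 13.51 at P7, against 11.07 and 11.04 at P3. The P3 replicates nearly coincided in both cases, while the P7 replicates lay far apart with slide 2 the higher. In WT MEFs at 20% O2 it was 11.59 and 13.26 at P7, against 11.37 and 11.59 at P3. In WT MEFs at 3% O2 it was 12.01 and 12.68 at P7, against 11.24 and 11.04 at P3. All 8 same-slide pairs were higher at P7, by 0.21 to 3.00, which 11.1% of the tested miRNAs also showed.

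**Figure D1:**
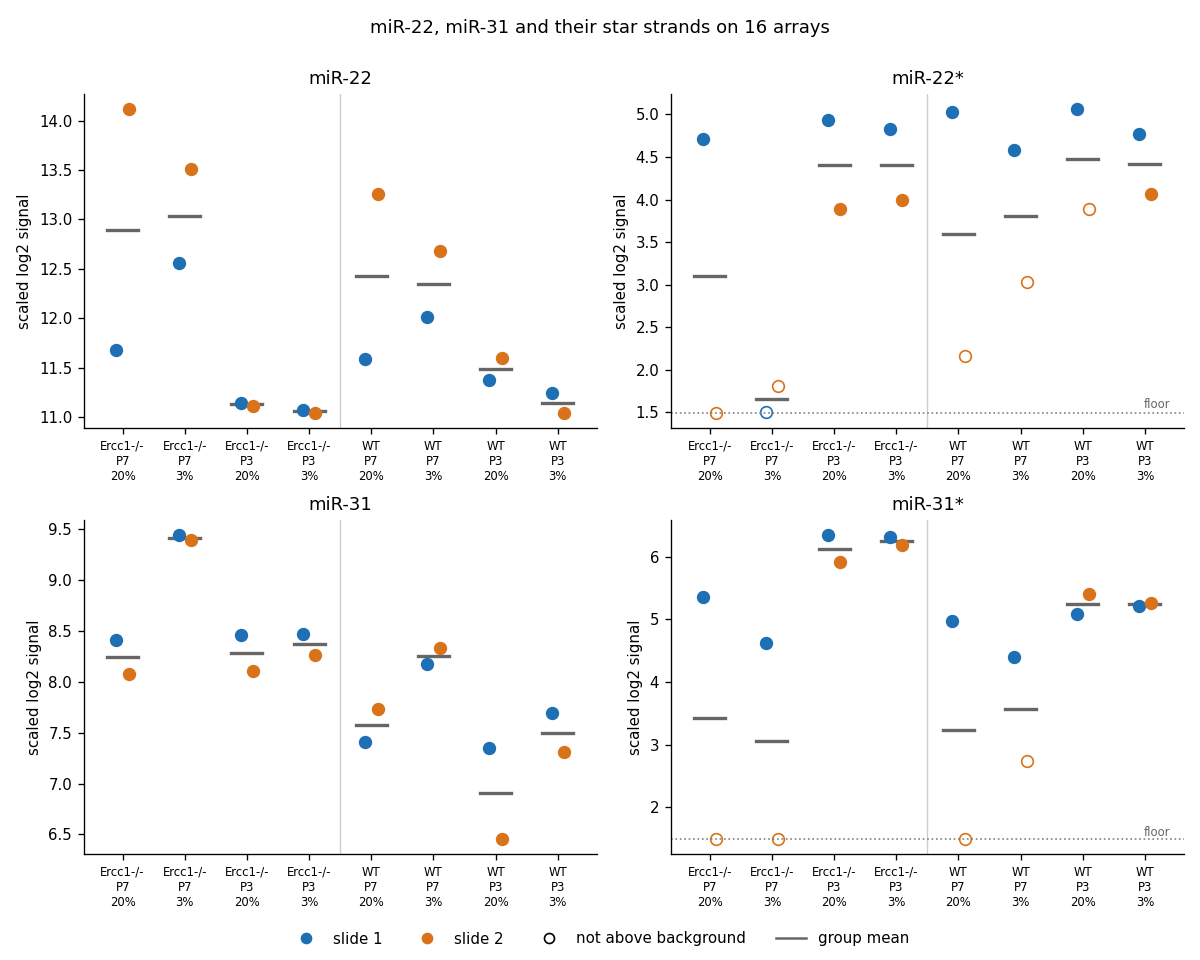
Scaled log2 signal (y axis) of each miRNA on the 16 arrays, by genotype, passage and oxygen (x axis), with points for single arrays coloured by slide, open points for arrays where the miRNA was not above background, and bars for group means. MiR-22 is at 11.59 or above on every P7 array, miR-31 is highest in *Ercc1*-/- P7 MEFs at 3% O2, and both star strands are open or at the floor of 1.50 on the slide 2 arrays of P7 MEFs.

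Averaged over genotype and oxygen, the P7 minus P3 change of miR-22 was 1.47 (SE 0.40), or 2.78-fold, with 0.75 on slide 1 and 2.19 on slide 2. By group it was 1.77 in *Ercc1*-/- MEFs at 20% O2, 1.98 in *Ercc1*-/- MEFs at 3% O2, 0.94 in WT MEFs at 20% O2 and 1.20 in WT MEFs at 3% O2 (SE 0.79 each). The passage change was 0.80 larger in *Ercc1*-/- than in WT MEFs, with an SE of 0.79 that is as large as the difference, and its sign rests on the scaling (-0.55 without it and -0.073 when scaled to the mean over all miRNAs). Without the slide 2 array of *Ercc1*-/- P7 MEFs at 20% O2, the change in that group was 0.55, and without the slide 1 array it was 2.99. These values chose miR-22 and carry no test.

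The scale mattered for miR-22. Its unscaled log2 signal had a median of 12.25 on the P7 arrays and 11.76 on the P3 arrays, and on slide 1 the medians were 12.49 and 12.37. Without scaling the averaged passage change was 0.55, with 6 of 8 same-slide pairs higher, whereas the median over the 235 tested miRNAs was -1.18 without and -0.39 with scaling. The signal of miR-22 thus stayed near its P3 brightness or above on P7 arrays on which most other miRNAs were dimmer.

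MiR-22*, the star strand, went the other way with passage. It was above background on 7 of the 8 P3 arrays, between 3.89 and 5.06, but on 3 of the 8 P7 arrays, all on slide 1. In *Ercc1*-/- MEFs at 20% O2 it was 4.71 and, at the floor, 1.50 at P7, against 4.93 and 3.89 at P3. In *Ercc1*-/- MEFs at 3% O2 neither P7 array was above background (1.50 and 1.81), against 4.82 and 3.997 at P3. Against the lowest detected signal of any miRNA on those P7 arrays, the P3 signal was 4.22-fold higher. That signal is not a detection limit for miR-22*, which was not above background at 3.89 in WT P3 MEFs at 20% O2. In WT MEFs at 20% O2 it was 5.02 and 2.16 at P7, against 5.06 and 3.89 at P3. In WT MEFs at 3% O2 it was 4.59 and 3.03 at P7, against 4.77 and 4.07 at P3. On slide 1 the P7 minus P3 difference of the star strand was between -0.22 and -0.037 in 3 of the 4 pairs and -3.32 in *Ercc1*-/- MEFs at 3% O2. The P7 array of that last pair was the dimmest of slide 1. Its average before scaling was 7.91 with 155 miRNAs detected, against 8.94 and 216 for WT P7 MEFs at 3% O2 on that slide. The averaged change was -1.39 (SE 0.56), given as a description.

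MiR-31 was above background on all 16 arrays and was higher in *Ercc1*-/- than in WT MEFs at both passages and both oxygen levels. In P7 MEFs at 20% O2 it was 8.41 and 8.07 in *Ercc1*-/- cells, against 7.41 and 7.74 in WT cells. In P7 MEFs at 3% O2 it was 9.44 and 9.39 in *Ercc1*-/- cells, against 8.18 and 8.33 in WT cells. In P3 MEFs at 20% O2 it was 8.46 and 8.10 in *Ercc1*-/- cells, against 7.35 and 6.46 in WT cells. In P3 MEFs at 3% O2 it was 8.47 and 8.27 in *Ercc1*-/- cells, against 7.69 and 7.31 in WT cells. The replicates of the genotypes did not overlap in any of these 4 settings, and how many of the tested miRNAs did the same was not counted. At P3 all 4 *Ercc1*-/- arrays lay above all 4 WT arrays, as 6.38% of the tested miRNAs did.

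All 8 same-slide pairs were higher in *Ercc1*-/- MEFs, by 0.34 to 1.64, a pattern shared by 2.55% of the 235 tested miRNAs. The methods describe independent lines as replicates, so the pairs may be repeats of the same few lines. A difference between lines would then recur in all 8. The averaged difference was 1.02 (SE 0.25, 95% interval 0.47 to 1.57), or 2.03-fold, with 1.04 on slide 1 and 1.00 on slide 2. It missed the threshold in limma's test with Benjamini-Hochberg adjustment (adjusted p = 0.0682) and passed it with the slide as a replicate block (adjusted p = 0.0400). None of the members was called in this comparison without the block, where 1.70% of the tested miRNAs were. With the block 2.98% were called, and miR-31 was the 1 member among them. The difference of miR-31 was the third highest of the 235. With the cell line as a random block instead, 0 members were called. By setting the difference was 0.67 at P7 in 20% O2, 1.16 at P7 in 3% O2, 1.38 at P3 in 20% O2 and 0.87 at P3 in 3% O2 (SE 0.50 each, lowest adjusted p = 0.780), and none was called. The P7 values use the *Ercc1*-/- arrays whose oxygen difference chose miR-31, so they are not independent of that choice. Of the tested miRNAs 0.426% were called at P7 in 20% O2, 0% at P7 in 3% O2, 0.851% at P3 in 20% O2 and 0% at P3 in 3% O2. Without scaling the average was 0.85, and 7 of the 8 pairs were higher in *Ercc1*-/- MEFs, but the difference was then -0.034 at P7 in 20% O2 and 0.18 at P7 in 3% O2, beside 2.36 at P3 in 20% O2 and 0.90 at P3 in 3% O2. The exception was P7 at 20% O2 on slide 2, the pair that holds the dimmest array.

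**Figure D2:**
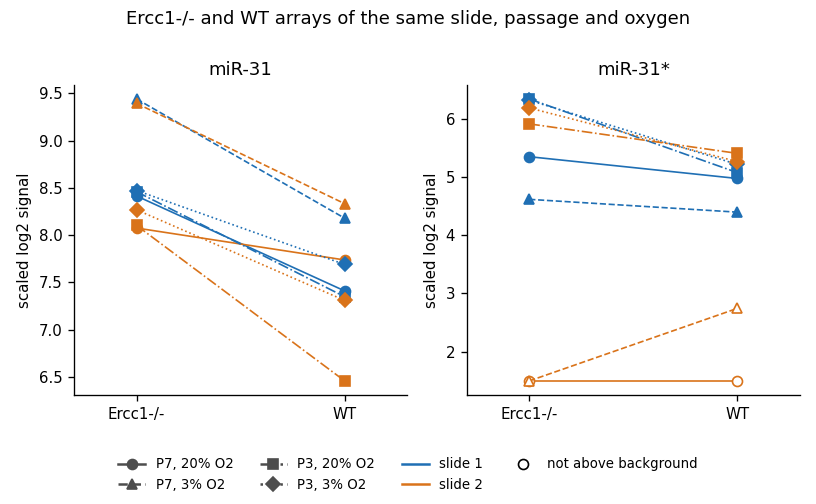
Scaled log2 signal (y axis) of miR-31 and miR-31* in *Ercc1*-/- and WT MEFs (x axis), with a line for each pair of arrays of the same slide, passage and oxygen level, and open points for arrays where the miRNA was not above background. All 8 lines of miR-31 fall from *Ercc1*-/- to WT. For miR-31* the 4 lines of P3 MEFs fall, as do those of P7 MEFs on slide 1.

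MiR-31*, the star strand of the same hairpin, showed the genotype difference at P3, where it was above background on all 8 arrays. At 20% O2 it was 6.34 and 5.91 in *Ercc1*-/- P3 MEFs, against 5.08 and 5.41 in WT P3 MEFs. At 3% O2 it was 6.32 and 6.19 in *Ercc1*-/- P3 MEFs, against 5.22 and 5.27 in WT P3 MEFs. As for miR-31, all 4 *Ercc1*-/- P3 arrays lay above all 4 WT P3 arrays, as in 6.38% of the tested miRNAs. The differences of 0.89 and 1.01 (SE 1.38 each) were not called, and 0.851% of the tested miRNAs were called at 20% and none at 3% O2. The fit shares 1 spread over the 8 groups, and the SD of miR-31* was 0.034 to 0.30 in the P3 groups but 1.17 to 2.72 in the P7 groups.

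At P7 miR-31* was above background on the 4 slide 1 arrays and on none of the 4 slide 2 arrays. In *Ercc1*-/- MEFs it was 5.35 and 1.50 at P7 in 20% O2 and 4.62 and 1.50 at P7 in 3% O2. In WT MEFs it was 4.98 and 1.50 at P7 in 20% O2 and 4.40 and 2.74 at P7 in 3% O2. All 8 same-slide pairs were lower at P7 than at P3, with differences of -4.69 to -0.10, as were 17.9% of the tested miRNAs. The averaged P7 minus P3 change was -2.39 (SE 0.69, adjusted p = 0.0145), with -0.90 on slide 1 and -3.88 on slide 2. The fit took the arrays as independent, although P7 arrays of a slide deviated together (r of 0.71 to 0.87). This SE and adjusted p can thus be too small. MiR-31* was the 1 member called, but 54.9% of the tested miRNAs were called in this comparison and 32.3% were called lower, so that the call does not set it apart. On slide 1, where the star strand was measured on both sides, the change was -0.99 at 20% and -1.70 at 3% O2 in *Ercc1*-/- MEFs, and -0.10 at 20% and -0.82 at 3% O2 in WT MEFs. The 4 single passage comparisons ranged from -3.20 to -1.67 (SE 1.38 each, adjusted p of 0.135 to 0.647), and none was called. That in *Ercc1*-/- MEFs at 20% O2 rested on the 2 P7 arrays, being -4.63 (adjusted p = 0.0172) without the slide 1 array and -0.78 (adjusted p = 0.934) without the slide 2 array.

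The passage change of the mature strand, miR-31, had the opposite sign. Averaged over genotype and oxygen it was 0.61 (SE 0.25, adjusted p = 0.0540, and 0.0321 with the replicate block), with 0.37 on slide 1 and 0.85 on slide 2. With the block 68.1% of the tested miRNAs were called. In *Ercc1*-/- MEFs the P7 minus P3 change was -0.036 at 20% O2 and 1.05 at 3% O2. In WT MEFs it was 0.67 at 20% O2 and 0.76 at 3% O2 (SE 0.50 each). None of these was called (lowest adjusted p = 0.168); among the tested miRNAs 1.28% were called at 20% O2 in each genotype and 0% at 3% O2. The *Ercc1*-/- changes at 20% and 3% O2 use the P7 arrays whose oxygen difference chose miR-31, so they are not independent of that choice. The unscaled change averaged -0.31, so its sign rests on the scaling. The passage change of miR-31 in *Ercc1*-/- minus that in WT MEFs was -0.21 (95% interval -1.30 to 0.88, adjusted p = 0.865), and that of miR-31* was -1.11 (95% interval -4.13 to 1.91, adjusted p = 0.771), where 0% of the tested miRNAs were called.

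**Figure D3:**
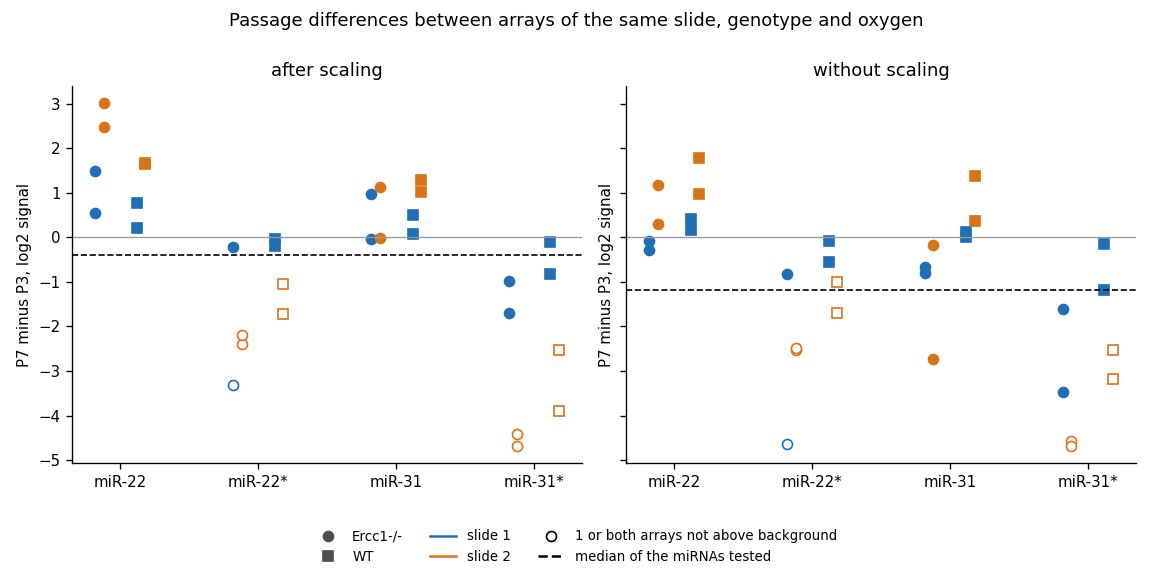
P7 minus P3 difference in log2 signal (y axis) of each miRNA (x axis) for the 8 pairs of arrays of the same slide, genotype and oxygen level, after scaling (left) and without it (right), with open points where 1 or both arrays were not above background and a dashed line at the median of the 235 tested miRNAs. The miR-22 points lie above the dashed line in both panels, and within each genotype and oxygen level the miR-31* point lies lower on slide 2 than on slide 1.

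MiR-31 was lower at 20% than at 3% O2 in all 8 same-slide pairs, with differences of -1.32 to -0.012, as were 2.13% of the tested miRNAs. These pairs include those of *Ercc1*-/- P7 MEFs that chose miR-31, so the count is a description and the share beside it does not measure rarity. The difference that chose miR-31, in *Ercc1*-/- P7 MEFs, was -1.17 (SE 0.50), with -1.03 on slide 1 and -1.32 on slide 2. In WT P7 MEFs it was -0.68 and in WT P3 MEFs -0.60, while in *Ercc1*-/- P3 MEFs it was -0.089 (SE 0.50 and adjusted p of 1.00 each), and 0% of the tested miRNAs were called in any of these 4 settings. The averaged difference of -0.63 (SE 0.25) holds the value that chose the miRNA and is a description. At P3 the *Ercc1*-/- arrays of the 2 oxygen levels overlapped (8.46 and 8.10 at 20% O2, against 8.47 and 8.27 at 3% O2). Without scaling, 6 of the 8 pairs were lower at 20% O2. Among the other members, the averaged oxygen difference was 0.087 for miR-22 (95% interval -0.78 to 0.96) and 0.32 for miR-22* (95% interval -0.90 to 1.55). Neither was called (adjusted p of 1.00 each), and 0.851% of the tested miRNAs were called in this comparison. For miR-31* it was -0.023 (SE 0.69).

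**Figure D4:**
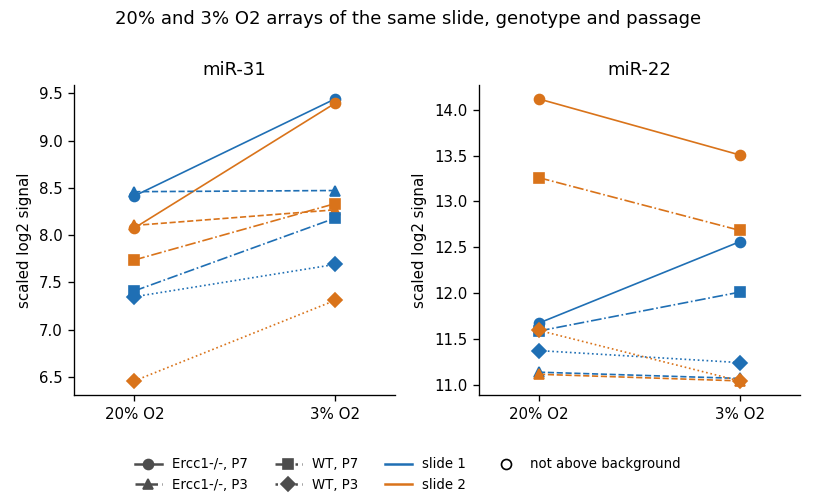
Scaled log2 signal (y axis) of miR-31 and miR-22 at 20% and 3% O2 (x axis), with a line for each pair of arrays of the same slide, genotype and passage. All 8 lines of miR-31 climb towards 3% O2, the flattest being that of *Ercc1*-/- P3 MEFs on slide 1, while those of miR-22 run in both directions.

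Ordered by their means, the groups of miR-31 ran from *Ercc1*-/- P7 at 3% O2 (9.42 ± 0.033), which stood clear of the next, through *Ercc1*-/- P3 at 3% O2 (8.37 ± 0.14), *Ercc1*-/- P3 at 20% O2 (8.28 ± 0.25), WT P7 at 3% O2 (8.26 ± 0.11) and *Ercc1*-/- P7 at 20% O2 (8.24 ± 0.24). WT P7 at 20% O2 (7.57 ± 0.23), WT P3 at 3% O2 (7.50 ± 0.27) and WT P3 at 20% O2 (6.90 ± 0.63; SD, n = 2 each) followed. The arrays of neighbours in this order overlapped except for the first and second group and for *Ercc1*-/- P7 and WT P7 at 20% O2. The first group is part of the comparison that chose miR-31, and its rank rests on the scaling. Its mean unscaled signal was 389, below 594 in *Ercc1*-/- P3 MEFs at 3% O2 and 620 in those at 20% O2. In miR-22 the 4 P7 groups (means of 12.35 to 13.03) came before the 4 P3 groups (11.06 to 11.48), and each P7 group overlapped the next P7 group. The last P7 group by mean did not overlap the first P3 group. The passages did overlap in WT MEFs at 20% O2, where the P7 array of slide 1 (11.588) lay below the P3 array of slide 2 (11.594). In miR-31* the *Ercc1*-/- P3 groups (6.25 ± 0.094 at 3% and 6.13 ± 0.30 at 20% O2) came first and the WT P3 groups (5.24 at both oxygen levels) next. The genotypes did not overlap there, as in 6.38% of the tested miRNAs. In miR-22* every neighbouring pair of groups overlapped, with *Ercc1*-/- P7 at 3% O2 last (1.66 ± 0.22).

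Between *Ercc1*-/- and WT MEFs, miR-22 had an averaged difference of 0.18 (95% interval -0.69 to 1.05, adjusted p = 0.970), with 5 of 8 pairs higher. MiR-22* had one of -0.68 (95% interval -1.91 to 0.55, adjusted p = 0.933), and miR-31* one of 0.39 (95% interval -1.12 to 1.90, adjusted p = 0.933). These intervals are wide enough to hold differences of 2-fold in 1 direction or the other. The largest gap was that of miR-22* in P7 MEFs at 3% O2, where neither *Ercc1*-/- array was above background (1.50 and 1.81), while of the WT arrays that of slide 1 was (4.59) and that of slide 2 was not (3.03). It was not called (adjusted p = 0.988, with no miRNA called). The *Ercc1*-/- array of slide 1 in this setting was also the dimmest of its slide.

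Each member was read by 2 probes, each printed as 10 spots on an array. The averaged genotype difference of miR-31 was 1.02 on both probes, and its oxygen difference -0.63 on both. The passage change of miR-22 was 1.48 on one probe and 1.47 on the other, and that of miR-31 was 0.55 and 0.74. For the star strands, the passage change was -1.20 and -1.38 for miR-22* and -2.11 and -2.58 for miR-31*. No direction differed between the probes of a member in these averages, other than the oxygen difference of miR-31*, which was 0.03 and -0.06.

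The miRNAs whose pattern over the 16 arrays was most like that of miR-22, with slide means subtracted, were miR-1895, miR-1892 and miR-320 (Pearson r of 0.98 each). The median r over the tested miRNAs was -0.55. MiR-320, a miRNA known to be made without Drosha, had an averaged passage change of 1.59 (SE 0.44), miR-1895 of 2.40 (SE 0.62) and miR-1892 of 2.86 (SE 0.71). The pattern most like that of miR-31 was that of miR-140*, the star strand of a cartilage miRNA, with an r of 0.91, followed by miR-181c (0.80) and miR-17* (0.78), the star strand of miR-17, which is linked to proliferation. MiR-140* had an averaged genotype difference of 0.89 (SE 0.25) and an averaged oxygen difference of -0.76 (SE 0.25). These arrays share their slides and scaling, and the correlations are descriptions.

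Of a list of 11 senescence-linked miRNAs, drawn from the study's introduction and widened to the miR-29 family, 10 were tested, and 6 of them were lower at P7 than at P3 on average, with a median change of -0.43 beside -0.39 over all tested miRNAs. Leaving out miR-22, whose passage change carries no test, those called were miR-34a, a target of p53 (-1.60, SE 0.56, adjusted p = 0.0297), miR-146b, a regulator of inflammatory signalling (-1.77, SE 0.64, adjusted p = 0.0342), and miR-28 (-1.66, SE 0.51, adjusted p = 0.0182), all 3 lower. Of all tested miRNAs 32.3% were called lower, so that 3 of 10, a count that still holds miR-22, does not set the list apart. None of the list was called in the averaged genotype comparison, where 1.70% of the tested miRNAs were, or in the averaged oxygen comparison, where 0.851% were.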

How the data were processed

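Total RNA of 16 MEF cultures was hybridised to one-colour (Cy3) Agilent mouse miRNA arrays. The deposited intensity values were made by the authors with Agilent Feature Extraction (10.7.1.1 in the file headers), which subtracts the background of each spot; arrays were not scaled. The authors' series table of summed intensity served as an alternative. Here, spots marked as outliers (58 of 1280 member spots) were left out and spots, then probes, averaged. A probe was taken as detected above background if a share of 0.5 or more of its spots was. Arrays were scaled to equal mean log2 over 57 miRNAs, with a floor of 2.82 (log2 of 1.50). The 235 miRNAs above background on both arrays of a group were tested with limma 3.58.1 (R 4.3.3), 1 mean per group (degrees of freedom of 8, residual, and 3.58, prior). In each of 18 comparisons the p-values were adjusted by Benjamini-Hochberg and called under 0.05. A fold against a group with no detected array was taken against the lowest detected signal of any miRNA on its arrays. That is not a detection limit of the miRNA itself. The scripts were tested on simulated data. Members and lists were chosen with earlier results of these data known; the text names the members, the 3 miRNAs most like miR-22 and miR-31, miR-210 and called miRNAs of the senescence list. Same-numbered arrays shared a slide and scan, and their deviations from group means correlated with r of 0.48 to 0.74 within P3, 0.71 to 0.87 within P7 and -0.34 to 0.37 between passages. The number of arrays limits the precision, and the p-values measure the spread between 2 cultures per group. The fit took the arrays as independent and did not model deviations shared within a passage. For averaged passage changes the SEs and p-values can thus be too small, and the shares called too large.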

Additional observations from a re-analysis of the deposited data

Results flagged for a closer look

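MiR-22 differed between *Ercc1*-/- and WT MEFs in opposite directions at the 2 passages, on both slides in 3 of the 4 settings. It was higher in *Ercc1*-/- MEFs at P7, by 0.47 at 20% O2 and by 0.69 at 3% O2, and lower at P3 in 20% O2, with a difference of -0.36. All 3 directions turned without scaling, to -0.23 at P7 in 20% O2, -0.30 at P7 in 3% O2 and 0.63 at P3 in 20% O2, and all 4 unscaled P7 pairs were lower in *Ercc1*-/- MEFs. The difference between these single settings was not tested, and each rests on 2 pairs of arrays.

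MiR-31 had a passage change of 1.05 in *Ercc1*-/- MEFs at 3% O2, of 0.67 in WT MEFs at 20% O2 and of 0.76 in WT MEFs at 3% O2, but of -0.036 in *Ercc1*-/- MEFs at 20% O2, where both slides gave a value just under 0. The gap between the *Ercc1*-/- values restates the 20% against 3% O2 difference at P7 that chose miR-31. Without scaling the change was -0.48 in *Ercc1*-/- MEFs at 3% O2 and -1.70 at 20% O2, against 0.24 in WT MEFs at 3% O2 and 0.70 at 20% O2. The difference between these single settings was not tested.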

How the results depend on the processing

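MiR-31* at P7 against P3 was the 1 change called in the fit described above, and it kept its sign under every alternative. MiR-31 in *Ercc1*-/- against WT MEFs, 1.02 on average, passed the threshold with normexp background correction (0.94). It also passed with the replicate block, with no filter and with the miRNAs detected on all arrays alone (1.02 each). In each of these fits it was the 1 call among the genotype tests of the members. With the methods' t-test, 3 of 20 such tests, averaged and single settings together, passed at its own thresholds and 0 after Benjamini-Hochberg adjustment. The averaged difference of miR-31 ranged from 0.85 to 1.02 over 13 settings, and leaving out 1 array gave 0.91 to 1.13. It was called without the slide 1 array of WT P3 MEFs at 20% O2 (adjusted p = 0.0479) and without either array of *Ercc1*-/- P7 MEFs at 20% O2 (0.0235 and 0.0194). The averaged passage change of miR-31 passed with the 75th percentile over miRNAs above background on all arrays (0.95), quantile scaling (0.86), normexp (0.53) and the total signal, the replicate block, the cell line as a random block, no filter and the miRNAs detected on all arrays alone (0.61 each). It was -0.31 without scaling, and 0.50 to 0.72 when 1 array was left out. Calls at P7 against P3, counted over the tests of miR-31 and miR-31* rather than by member, were accordingly 2 under most of these settings. They were 0 where the arrays of a comparison were fitted alone, which gives no average. MiR-31* at P7 against P3 was not called with no filter (-2.39, adjusted p = 0.0767), and was called in 11 of 12 settings and in all 16 fits with 1 array left out (-2.88 to -1.91), with a range over the settings of -3.21 with the lower floor to -1.06 with normexp.

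Without scaling, the described passage change of miR-22 was 0.55, against 1.47. With normexp that of miR-22* was -0.18, against -1.39. The averaged oxygen difference of miR-31 was -0.88 without scaling and -0.89 with the mean over all miRNAs. Signs of small differences that were not called turned. That of miR-22 between genotypes was -0.11 with quantile scaling and -0.13 to 0.48 with 1 array left out. Its oxygen difference was -0.16 without scaling, -0.0092 and -0.081 with 75th percentiles, -0.17 with the mean over all miRNAs, -0.23 with quantile scaling and -0.22 to 0.39 with 1 array left out. The oxygen difference of miR-22* was -0.094 with the lower floor and -0.081 to 0.72 with 1 array left out, and the genotype difference of miR-31* was -0.088 to 0.87. For miR-31 in single settings, the passage change in *Ercc1*-/- MEFs was 0.36 at 20% O2 with a 75th percentile (-0.21 to 0.14 with 1 array left out) and -0.48 at 3% O2 without scaling, the genotype difference at P7 in 20% O2 was -0.034 and the oxygen difference in *Ercc1*-/- P3 MEFs 0.039, both without scaling, with -0.27 to 0.090 for this difference when 1 array was left out. The genotype difference of miR-22 at P7 in 20% O2 was -0.053 with the 75th percentile over all miRNAs, -0.091 with the mean over all miRNAs, -0.18 with quantile scaling and -0.23 without scaling (-0.75 to 1.69 with 1 array left out), and at P7 in 3% O2 -0.30 without scaling. At P3 in 20% O2 it was 0.082 with that percentile, 0.28 with that mean and 0.63 without scaling. The passage change of miR-31 in *Ercc1*-/- minus that in WT MEFs was -0.43 to 0.015 with 1 array left out and -1.56 without scaling. Of 652 further values under an alternative that the text gives only by array, 111 had the opposite sign, and none of them was called. The causes were not tested. On P7 arrays of slide 2 neither star strand was above background, so their values there are not measured levels.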
